A study of Atriplex lentiformis with 9 samples.

Results

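Pentatricopeptide repeat (PPR) proteins were followed in roots of quailbush (Atriplex lentiformis, a salt-tolerant shrub). They were taken as the entries whose Arabidopsis protein name is PP with 3 digits or PPR with a number, which gave 261 of the 5164 entries, and 249 of these had enough reads to be tested (2 or more libraries reaching 10 normalised reads). All plants had grown for 11 weeks in mine tailings mixed with compost, at 10% (TC10), 15% (TC15) or 20% (TC20). No soil without compost or without tailings is part of the comparison, so each contrast sets one compost dose against another. Root expression was compared in 8 libraries of 1 plant each: TC10 plants 2 and 4, TC15 plants 2, 6 and 10, and TC20 plants 3, 5 and 9. A further file, labelled TC10 plant 5, repeats the values of TC15 plant 6 and was not used.

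PPR proteins are encoded in the nucleus and act mostly in mitochondria and plastids. Each is a string of short helical repeats that reads an RNA base by base, so that a member usually serves one or a few organelle transcripts. Members of the P class stabilise, cut, splice or help translate these transcripts, and members of the PLS class direct the change of chosen cytidines to uridines, often through a DYW domain at their end. In a root the transcripts served are those of mitochondrial respiration and of non-green plastids. The files name the members by number and give none of them a target, and how quailbush transcripts were assigned to an Arabidopsis protein name is not given, so values of closely related PPR genes are uncertain.

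The libraries held 3030394 to 4752637 recovered reads, of which 32213 to 50854 fell on PPR entries. All 261 entries were listed in at least 5 of the 8 libraries and 257 in every one. Mean values over the 8 libraries ran from 1.19 to 3073 normalised reads with a median of 88.2, against a median of 337 over all entries. These reads are not scaled by transcript length, so they do not rank genes by transcript number. Among 4 root entries chosen with the data known, SHR, a root patterning factor, averaged 251 normalised reads (59.1 in TC10 plant 2 and 186 to 438 elsewhere) and SKOR, a potassium channel of the root stele, 419, whereas SCR, another root patterning factor, averaged 6.85 and COBL9 of root hairs 0.502, both below the minimum for testing. The light-harvesting entry CB4B of green tissue averaged 52.0, was highest in TC10 plant 2 (120.1) and TC15 plant 10 (110.3), and lay between 18.4 and 58.8 in the other libraries. The part of these differences in the PPR values was not tested.

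The PPR entries went up and down together from plant to plant, and stood highest in the 3 roots grown with 15% compost. The family level of a library is the median, over the 249 tested members, of log2(normalised reads + 1) minus the mean of the same entry over the 8 libraries. TC10 plants 2 and 4 had -0.20 and -0.01. It was 0.31, 0.18 and 0.14 in TC15 plants 2, 6 and 10. It was -0.03 and 0.03 in TC20 plants 3 and 5, and -0.34 in TC20 plant 9. Each TC15 root thus lay above each of the other 5, and the same median over all 4801 tested entries stayed between -0.01 and 0.01 in every library. In root tissue, fewer cells of a type and less RNA per cell cannot be told apart.

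**Figure D1:**
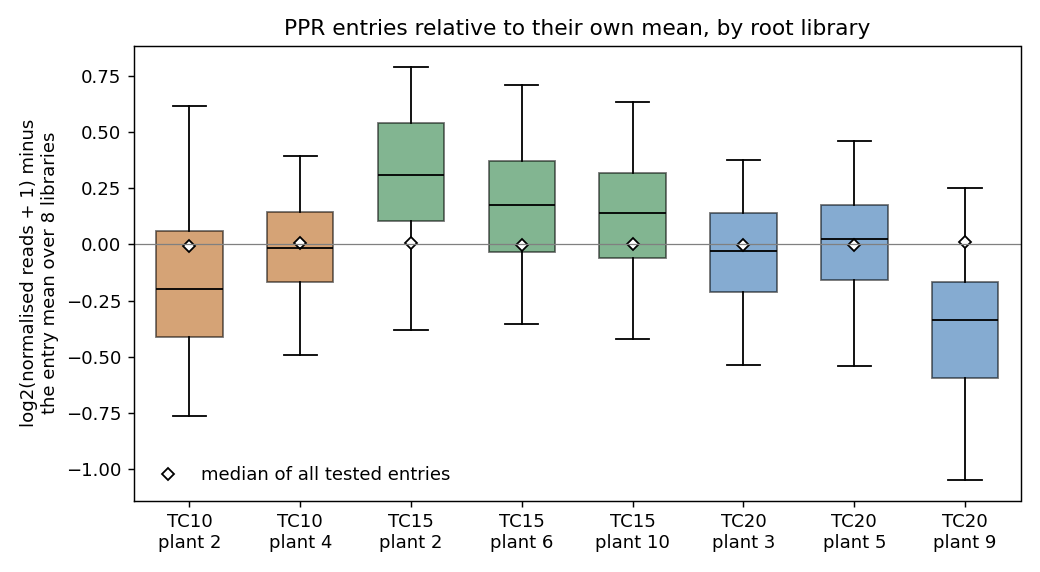
Each box gives the range between the quartiles of the 249 tested PPR entries in a library, with whiskers from the 5th to the 95th percentile, as log2(normalised reads + 1) minus the mean of the entry. Diamonds are the median of all 4801 tested entries, which stays near 0, while the PPR median ranges from -0.34 in TC20 plant 9 to 0.31 in TC15 plant 2.

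Counted by member, 207 of 249 (83.1%) were above their own mean in TC15 plant 2, 180 (72.3%) in TC15 plant 6 and 168 (67.5%) in TC15 plant 10. In TC20 plant 9 this was so for 32 (12.9%), and in TC10 plant 2 for 71 (28.5%). The share over all entries was between 49.4% and 51.3% in every library. TC15 plant 2 held the highest value of 96 members (38.6%), against 14.2% of all entries. TC20 plant 9 held the lowest value of 108 (43.4%), against 19.2% of all entries. Over all entries, TC20 plant 9 also held the highest value of 21.1%. TC10 plant 2 held the lowest value of 18.0% of all entries and the highest value of 18.0%. A TC15 root held the highest value of 182 members (73.1%), against 36.5% of all entries. In 32 members (12.9%) all 3 TC15 roots lay above all 5 others, against 2.96% of all entries, and in 0 members did they all lie below, against 3.02%.

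The family also took a larger share of the reads in TC15. PPR entries made up 0.890% and 1.11% of the normalised reads in TC10 plants 2 and 4. They made up 1.22%, 1.17% and 1.21% in TC15 plants 2, 6 and 10, and 1.07%, 1.11% and 0.844% in TC20 plants 3, 5 and 9. The group means were 0.998 ± 0.152% (SD, n = 2), 1.20 ± 0.0256% (n = 3) and 1.01 ± 0.141% (n = 3) in TC10, TC15 and TC20, and TC15 did not overlap either of the others. The share was highest in the same 3 libraries when the 214 entries found in the top 100 of any library, none of them a PPR entry, were taken out of the total (1.62 to 1.71% in TC15, against 1.34 and 1.52% in TC10 and 1.19 to 1.55% in TC20).

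Plants of the same treatment also differed. TC20 plant 9 was lower than TC20 plant 5 by a median log2 difference of -0.39 over the members (196 of 249 lower) and than TC20 plant 3 by -0.31 (191 lower). TC10 plant 4 was above TC10 plant 2 by 0.18 (165 higher). Among the TC15 roots the largest such difference was -0.21, for plant 10 against plant 2. The difference between the mean levels of TC20 and TC15 was thus smaller than the range among the TC20 roots, although the groups did not overlap.

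The order of the libraries was alike for members of low and middle read levels. Of the 66 members averaging under 50 normalised reads, the median was 0.50, 0.39 and 0.18 in TC15 plants 2, 6 and 10 and -0.42 in TC20 plant 9. Of the 64 members averaging 200 to 500, it was 0.15, 0.07 and 0.12 in the TC15 roots and -0.28 in TC20 plant 9. The differences between libraries were therefore larger among members with few reads. Other entries of the same read level showed no such order: those under 50 (546 entries) had 0.08, 0.08 and 0.03 in the TC15 roots and 0.15 in TC20 plant 9, and those from 200 to 500 (1091 entries) stayed between -0.03 and 0.02 in all 8 libraries.

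**Figure D2:**
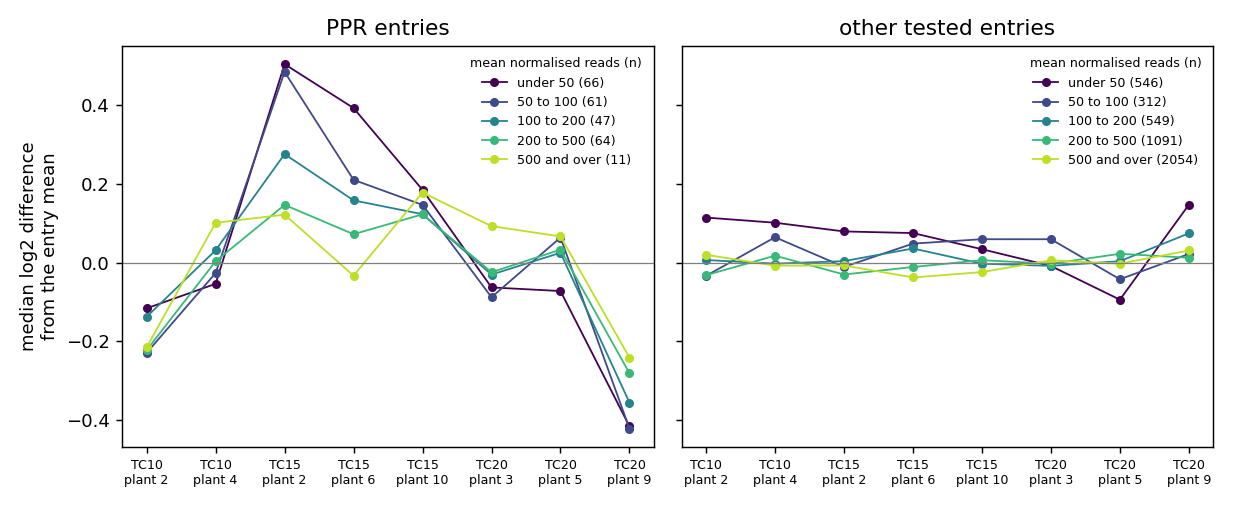
Median log2 difference from the entry mean in each library, for PPR entries (left) and for other tested entries (right), split by mean normalised reads; n is given in the legends. PPR lines lie highest over the TC15 roots and lowest over TC20 plant 9, except that the 11 PPR entries of 500 reads and over reach -0.03 in TC15 plant 6. Lines of other entries lie between -0.09 and 0.15.

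The first comparison within the compost series is TC15 against TC10. The median log2 change of the 249 members was 0.31 (a 1.24-fold higher level in TC15), with 206 higher and 43 lower. Over all 4801 entries the median was 0.00 and 49.6% were higher. In 79 members (31.7%) every TC15 root lay above both TC10 roots, which held for 12.4% of all entries, and in 6 members (2.41%) every TC15 root lay below, which held for 12.3%. No member passed the limma test at an adjusted p of 0.05 over all entries (lowest 0.73), and limma passed 0.0% of all entries. At an unadjusted p under 0.05 there were 8 members higher (2.71% of all entries) and 1 lower (3.92%), 9 in all or 3.61% of the members, against 6.62% of all entries. The edgeR test passed 0 members (0.0% of all entries), with 13 at an unadjusted p under 0.05. For edgeR and DESeq2, here and below, the unadjusted share over all entries was not counted. Their unadjusted member counts are thus not set against a background. DESeq2 gave an adjusted p to 29 of 261 members here and passed 0 of those (0.861% of the entries given one), and 10 of its 12 members with an unadjusted p under 0.05 had no adjusted p. The 9 turned into 5 when TC15 plant 10 was left out and into 20 when TC20 plant 9 was. The share of all entries with such a p in these runs was not counted, so whether the changes are particular to PPR members is unknown. Over all runs with a library left out, the member count varied more widely than these values show. Runs without a TC10 library leave a lone TC10 root, so their counts are not given for the tests between treatments. The median was 0.19 without TC10 plant 2, the lower of the TC10 pair.

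In TC20 against TC15 the family stood lower in TC20; the same TC15 roots enter both comparisons. The median log2 change was -0.32 (219 lower, 30 higher), against 0.01 over all entries, of which 51.7% were higher. In 51 members (20.5%) every TC20 root lay below every TC15 root, against 5.89% of all entries, and in 2 members (0.803%) every TC20 root lay above, against 6.98%. No member passed with limma (lowest adjusted p 0.79; 0.0208% of all entries passed), and 21 had an unadjusted p under 0.05, all of them lower in TC20. That is 8.43% of the members, against 5.83% of all entries in both directions, 2.79% in the lower and 3.04% in the higher one. With edgeR and DESeq2 0 members passed (0.0% and 0.214% of all entries), with 24 and 28 at an unadjusted p under 0.05. The percentages are those of adjusted calls, and the unadjusted share over all entries was not counted for either tool. Without TC20 plant 9 the median was -0.19 with 200 members lower, and the 21 became 5. It was 8 when either TC15 plant 2 or TC15 plant 6 was left out. How many of all entries had such a p in these runs was not counted.

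TC20 and TC10, the doses at the ends of the series, had like family levels. The median log2 change was -0.03, with 117 members higher and 132 lower (50.2% of all entries higher), and with 1 library left out it ranged from -0.13 (TC10 plant 2) to 0.08 (TC20 plant 9). TC20 lay wholly above TC10 in 9 members (3.61%, against 9.31% of all entries) and wholly below in 26 (10.4%, against 9.23%). With limma 0 members passed (lowest adjusted p 0.92; 0.0% of all entries) and 5 had an unadjusted p under 0.05 (2.01%, against 4.29% of all entries, 1.85% higher and 2.44% lower). The edgeR and DESeq2 tests passed 0 (0.0% and 0.277% of all entries passed). At an unadjusted p under 0.05 they had 5 and 6 members, and the share over all entries was not counted. The limma count of 5 turned into 3 when TC15 plant 2, TC15 plant 6 or TC20 plant 3 was left out. How many of all entries had such a p in these runs was not counted. Not every library left out lowered the count, and counts without a TC10 library, which leave a lone TC10 root, are not given. TC10, TC15 and TC20 had family levels of -0.11 ± 0.13 (SD, n = 2), 0.21 ± 0.09 (n = 3) and -0.11 ± 0.19 (n = 3).

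**Figure D3:**
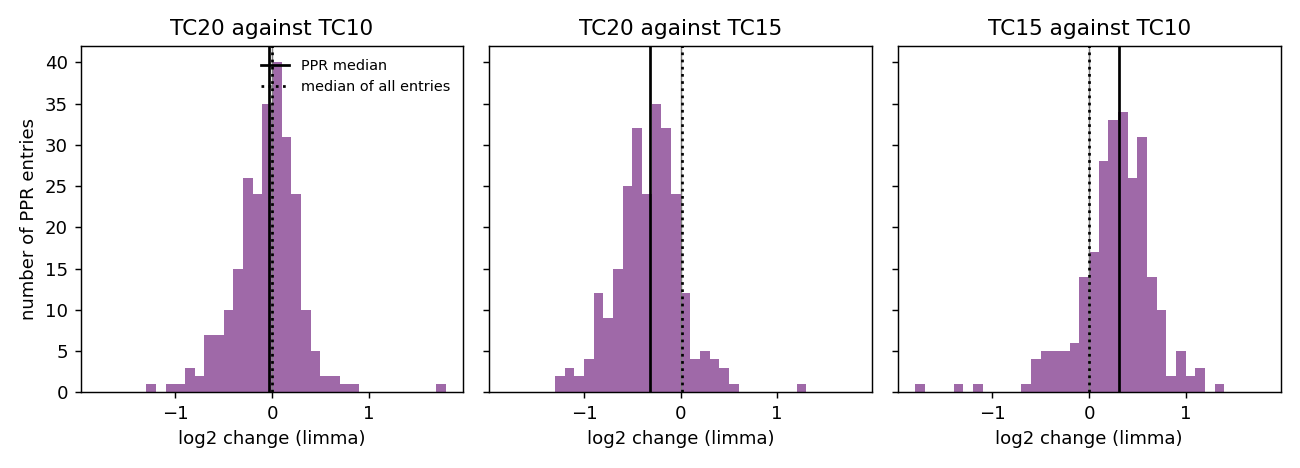
Number of tested PPR entries (of 249) by log2 change in bins of 0.1, for TC20 against TC10, TC20 against TC15 and TC15 against TC10. The solid line is the PPR median (-0.03, -0.32 and 0.31) and the dotted line the median of all tested entries.

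Across the 3 treatments, the limma F test gave 8 members an unadjusted p under 0.05 (3.21% of the members, against 5.14% of all entries) and passed 0 (lowest adjusted p 0.81; 0.0% of all entries). The DESeq2 likelihood ratio test, the one the series names, and edgeR passed 0 members too (0.694% and 0.0% of all entries passed). At an unadjusted p under 0.05 they had 13 and 7 members, and the share over all entries was not counted. The 8 turned into 2 when TC15 plant 2 or TC15 plant 6 was left out. Without TC15 plant 10 there were 4, without TC20 plant 3 there were 3, and without TC20 plant 9 there were 5. How many of all entries had such a p in these runs was not counted. Not every library left out lowered the count, and counts without a TC10 library, which leave a lone TC10 root, are not given. In 6 of the 8, PP359, PP360, PPR8, PP256, PP376 and PP377, the 3 TC15 roots were the highest or nearly so. In the other two, PP206 and PP167, the TC10 roots were the highest or nearly so.

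PP359 had the smallest p of the family in the F test. It had 37.2 and 33.7 normalised reads in TC10 plants 2 and 4, 69.0, 66.3 and 66.2 in TC15 plants 2, 6 and 10, and 36.5, 39.3 and 41.3 in TC20 plants 3, 5 and 9. The TC15 roots lay well apart from the other 5, which ran together, and 396 reads in all stand behind these values. Its log2 change was 0.91 (SE 0.27) in TC15 against TC10 and -0.77 (SE 0.25) in TC20 against TC15, with adjusted limma p of 0.73 and 0.79 and a DESeq2 adjusted p of 0.21 across the treatments.

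PPR8 had 39.1 and 39.5 normalised reads in the TC10 roots, 70.9, 76.2 and 88.2 in the TC15 roots and 49.6, 56.0 and 30.4 in the TC20 roots. All TC15 values were above all others, and TC20 plant 9 was the lowest root. The log2 change in TC15 against TC10 was 0.97 (SE 0.34, adjusted limma p 0.73). PP256 had 60.0 and 69.4 in TC10, 129, 90.9 and 76.7 in TC15, and 53.7, 54.2 and 53.2 in TC20. The TC20 roots were nearly equal and the TC15 roots spread widely, with plant 2 at the top. Its log2 change in TC20 against TC15 was -0.83 (SE 0.26, adjusted limma p 0.79). PP376 had 47.6 and 57.8 in TC10, 104, 81.1 and 67.0 in TC15, and 48.6, 52.5 and 39.1 in TC20, again with TC15 plant 2 highest and TC20 plant 9 lowest.

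PP377 had 177 and 201 normalised reads in TC10, 245, 263 and 252 in TC15, and 175, 199 and 127 in TC20. The TC15 roots were close to each other and above the rest, and TC20 plant 9 stood below its group. PP360 had 111 and 129 in TC10, 216, 210.0 and 183 in TC15, and 175, 185 and 129 in TC20. Here TC15 lay above TC10 without overlap (log2 0.75, SE 0.23, adjusted limma p 0.73) but TC20 plant 5 reached the lowest TC15 root. PP416 had the highest correlation with the family level of all tested members (r = 0.99 over 8 libraries, with a wider swing than the family), with 156 and 199 in TC10, 274, 239.5 and 249.7 in TC15, and 192, 192 and 136 in TC20.

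PP150, PP325 and PP193, also among the members with the smallest p in these pairs, had TC15 on top, and PP167 did not. PP150 had 106, 74.9 and 79.4 normalised reads in TC15, against 30.5 and 61.7 in TC10. The groups did not overlap, but its log2 change of 0.97 (SE 0.37, adjusted limma p 0.73) was 0.47 without TC10 plant 2 and 1.46 without TC10 plant 4. PP325 had 403, 307 and 329 in TC15, against 249.6 and 251 in TC10 (log2 0.46, SE 0.18). PP193 had 36.5, 40.2 and 18.5 in TC20, against 61.6, 71.2 and 65.3 in TC15 (log2 -1.11, SE 0.40, adjusted limma p 0.79), with TC20 plant 9 the lowest root. PP167 was lower in all 3 TC15 roots (430.1, 491 and 441), against 658 and 559.7 in TC10 (log2 -0.42, SE 0.17, adjusted limma p 0.73).

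The 6 members with the smallest p in TC20 against TC10 were picked for a difference where the family median was -0.03. Their departure from the family there follows from that choice. PP206 had 527, 504 and 491 normalised reads in TC20 plants 3, 5 and 9, against 882 and 636 in TC10 plants 2 and 4, with 637, 522 and 579 in TC15. TC10 plant 2 stood apart, and the log2 change of -0.56 (SE 0.18, adjusted limma p 0.92) was -0.33 without it. PP167 had 447, 482 and 392 in TC20, against 658 and 559.7 in TC10. Both TC10 roots were above all 6 others, TC15 included. PPR96 had 48.6, 64.7 and 36.9 in TC20, against 126 and 75.1 in TC10, PP427 had 256 to 309 against 478 and 338, and PP101 had 115 to 155 against 193 and 171. Without TC10 plant 2 the log2 change of PPR96 was -0.61 in place of -0.98, and that of PP427 -0.24 in place of -0.49. PP358 was the 1 of these 6 that was higher in TC20: it had 61.8, 73.4 and 42.3 in TC20, against 30.5 and 33.7 in TC10 (log2 0.83, SE 0.33), and the TC15 roots lay between 47.6 and 55.6.

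Over root zinc, which ran from 174 ug/g in TC20 plant 9 to 1075 ug/g in TC15 plant 10 among these 8 plants, 206 of 249 members had a positive slope, against 50% of all entries. The median slope was 0.12 on the log2 scale per doubling of zinc (0.00 over all entries). Every TC20 root had less zinc (215, 277 and 174 ug/g in plants 3, 5 and 9) than any other root (373 ug/g or more). Zinc and treatment can therefore not be fully told apart in these plants. No member passed with limma (lowest adjusted p 0.92; 0.0% of all entries), and 7 had an unadjusted p under 0.05, all positive (2.81% of the members, against 4.25% of all entries and 1.87% in that direction; 2.37% were negative). The edgeR and DESeq2 tests passed 0 (0.0% and 0.116% of all entries passed). At an unadjusted p under 0.05 they had 5 and 7 members, and the share over all entries was not counted. The median was 0.022 with treatment as a covariate (133 of 249 positive) and 0.04 without TC20 plant 9, the root lowest in zinc (155 positive). The 7 turned into 12 (TC10 plant 2), 4 (TC10 plant 4 or TC15 plant 10), 3 (TC15 plant 6) or 2 (TC20 plant 9) when 1 library was left out. How many of all entries had such a p in these runs was not counted.

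PP101 had the smallest p on the zinc slope. From the lowest to the highest zinc it had 115, 123, 155, 154, 193, 199, 171 and 198 normalised reads, so that the 4 roots lowest in zinc were all below the 4 highest. The slope was 0.31 per doubling (SE 0.09, adjusted limma p 0.92), 0.25 with treatment as a covariate and 0.28 to 0.38 when single libraries were left out. PP423, PP193, PP106, PP377 and PP110 had slopes of 0.79, 0.53, 0.43, 0.29 and 0.18, with adjusted limma p of 0.92 each. Without TC20 plant 9 the slope was 0.33 for PP193 and 0.18 for PP377. PP423 rests on 94 reads in all.

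The labels also score each plant's stress, on a scale that is not explained. This relation was looked at after the levels were seen. The 4 plants scored 3 or 4 (the TC15 plants and TC20 plant 5) had the 4 highest family levels, 0.03 to 0.31, and the 4 plants scored 2 had -0.34 to -0.01. Within TC15, plant 2 (scored 3) had 0.31, and plants 6 and 10 (scored 4) had 0.18 and 0.14. Within TC20, plant 5 (scored 3) had 0.03, and plants 3 and 9 (scored 2) had -0.03 and -0.34. Since all TC15 plants are among those scored 3 or 4, stress score and treatment cannot be fully told apart in these data.

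Most members had a positive correlation with the family level, though fewer than 50% had a high one, and a minority had a negative one. The correlation of a member with the family level over the 8 libraries had a median of 0.64, and 113 members (45.4%) reached 0.7, against 7.45% of the 4552 other tested entries. A correlation below 0 was found for 26 members (10.4%), against 54.7% of the other entries. The members contribute to the family level themselves, and all entries of a library share its depth, so these correlations only describe the libraries. The members with the smallest departure from the family level, by the SD left after the level was taken off, at a mean of at least 50 reads were PP175, PP171, PP137 and PP424, with 0.09 to 0.10 on the log2 scale. PP175, for example, had 69.6 and 84.8 normalised reads in TC10, 114, 87.2 and 97.0 in TC15, and 88.1, 92.7 and 70.6 in TC20.

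**Figure D4:**
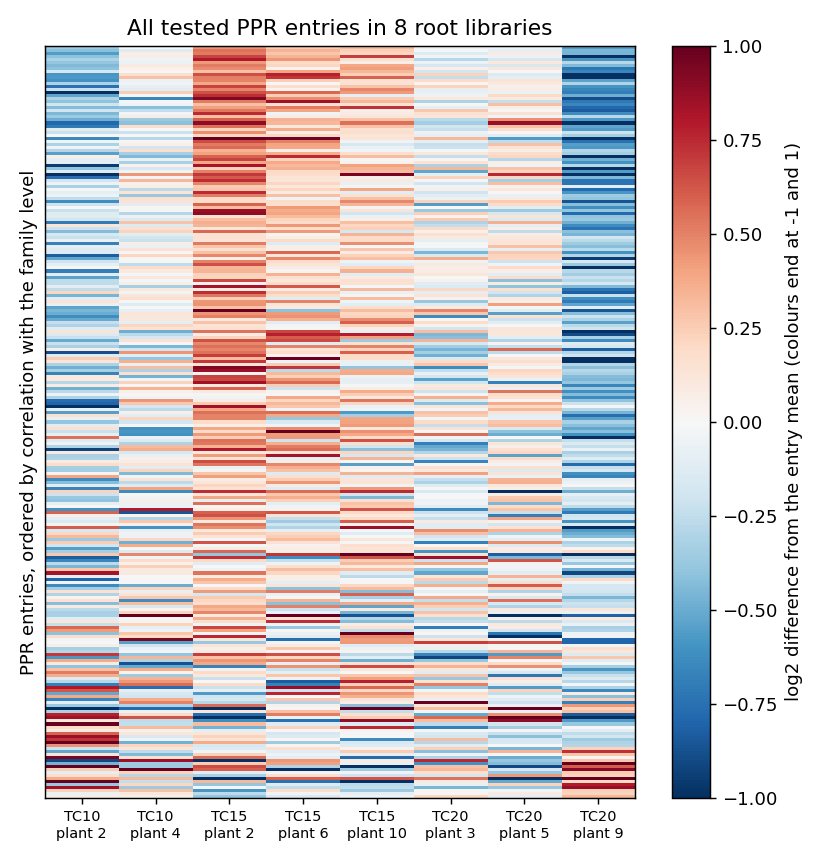
Log2 difference of each tested PPR entry (249 rows) from its own mean in the 8 root libraries, with rows ordered from the highest to the lowest correlation with the family level. Most rows are red in the 3 TC15 roots and blue in TC20 plant 9, and the rows at the bottom, where the correlation is below 0 for 26 entries, show the opposite or a pattern of 1 library.

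Among the 6 members with most reads, PPR38 and PP176 kept to the family and the other 4 did not. PPR38 had 2555 and 3387 normalised reads in TC10, 3492, 2958 and 3724 in TC15, and 2903, 3243 and 2323 in TC20, with TC20 plant 9 and TC10 plant 2 the lowest roots. PPR49, next in reads, departed most of all members with a mean of at least 50 (remaining SD 1.02). It had 3647 in TC10 plant 2 and 823 in TC10 plant 4, 1229, 581 and 485 in TC15, and 1043, 685 and 1124 in TC20. TC10 plant 2 alone was far above the others, so the log2 change of -1.30 in TC15 against TC10 (SE 0.64, adjusted limma p 0.73) rests largely on that plant.

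PP296 and PP351 ran against the family (r = -0.88 and -0.75 over 8 libraries). PP296 had 800.4 and 799.6 normalised reads in TC10, 588, 695 and 751 in TC15, and 889, 719.5 and 968 in TC20. It was lowest in TC15 plant 2 and highest in TC20 plant 9, the reverse of the family. PP351 had 788 and 888 in TC10, 688, 806 and 778 in TC15, and 832, 883 and 963 in TC20, with the same roots at its ends. Neither passed a test (adjusted limma p of 0.79 for both in TC20 against TC15). The members with a correlation of -0.5 or lower were 5 in all, the others being PP316, PP276 and PP209, of which PP316 and PP209 were named after their values were seen. PP209 had 679 in TC20 plant 9 and 299 to 459 elsewhere.

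The other members that departed most did so in different roots. PPR70 had 721 normalised reads in TC20 plant 9, where the family was lowest, and 192 and 217 in the other TC20 roots, with 212 and 229 in TC10 and 279 to 391 in TC15. PP276 had 149 in TC20 plant 9 and 146 in TC10 plant 2, and 58.8 to 80.2 in the other 6 libraries, so it was highest in the 2 roots where the family was lowest. PP268 had 159.7 in TC15 plant 6 and 16.3 in TC20 plant 9, and 44.3 to 72.8 elsewhere. PP119 ranged from 20.5 in TC15 plant 2 to 83.8 in TC10 plant 4, with the rest spread between. PP213 had 15.2 in TC10 plant 2 and 16.3 in TC20 plant 9, and 42.6 to 88.2 in the other 6. Its correlation with the family level was 0.84, with wider swings. The order was not that of the family throughout: TC15 plant 6 (51.6) lay below TC10 plant 4 (61.7) and TC20 plant 5 (76.9). In none of the pairs did a log2 change of these members pass with limma.

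**Figure D5:**
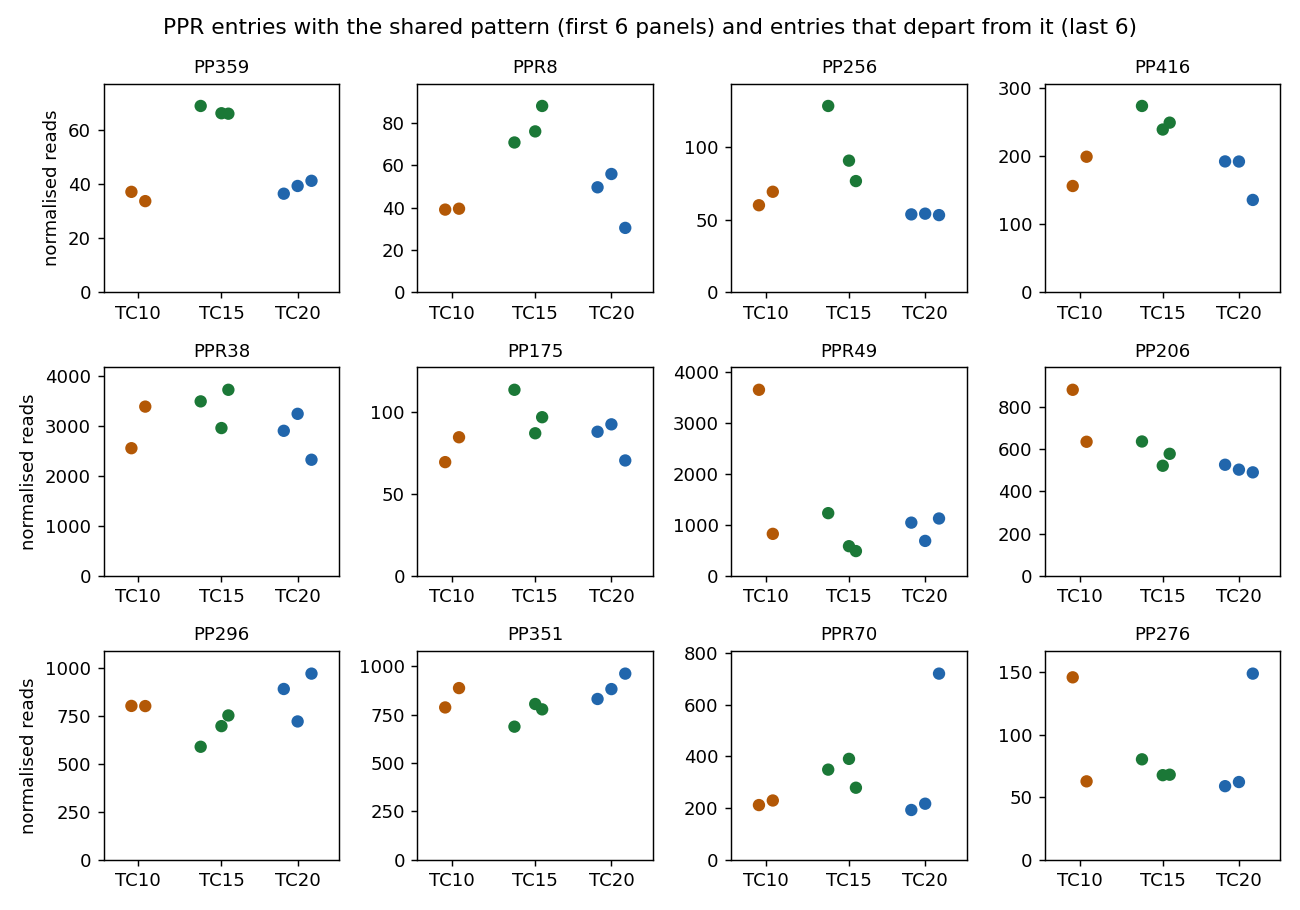
Normalised reads of 12 PPR entries in each root, 1 point per plant, by compost dose from TC10 to TC20 (linear axes from 0). The first 6 panels show entries that follow the family level, such as PP359 with 66.2 to 69.0 in TC15 and at most 41.3 elsewhere; the last 6 show entries that depart from it, such as PPR49 with 3647 in TC10 plant 2.

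At the low end, 12 members did not pass the minimum for testing and had at most 15.9 normalised reads in any library. Entries missing from a file were taken as 0. The 4 members not listed in every library were PP395, PP324, PP295 and PP111. PP395, the only one of them that was tested, was missing from TC15 plant 6 and had 5.29 to 21.2 in the other libraries. The other 3 had 20, 17 and 10 reads in all 8 libraries together.

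Other proteins of organelle RNA metabolism were followed through 22 tested entries in 5 lists. Of these, 18 had a higher and 4 a lower level in TC15 than in TC10 (median log2 0.21), 4 were higher and 18 lower in TC20 than in TC15 (median -0.11), and 0 passed with limma. Their median by library was -0.18 and 0.00 in TC10, 0.18, 0.06 and 0.13 in TC15, and 0.07, 0.11 and -0.27 in TC20, so that TC10 plant 2 and TC20 plant 9 were lowest here too, while the TC15 roots overlapped the TC20 roots. The 4 editing cofactors alone had another order, with a median of 0.09 in TC20 plant 9 and -0.11 in TC15 plant 10.

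Of the 4 editing cofactors, MORF proteins that join PLS-class PPR proteins at editing sites, MORF8 had 887, 726 and 483 normalised reads in TC15 plants 2, 6 and 10, against 469 and 360.3 in TC10 (log2 0.72, SE 0.27, adjusted limma p 0.73). In TC20 it had 534, 491 and 626.5, all above TC15 plant 10. MORF7 had 145, 83.5 and 77.6 in TC15, against 32.4 and 63.6 in TC10 (log2 1.09, SE 0.43), and 74.97, 74.3 and 46.7 in TC20. MORF2 had 847 to 988.8 in TC15, against 939.5 and 1001 in TC10, with overlap. PRRP1, a protein-only RNase P that carries PPR repeats and matures organelle tRNAs, had 510.3, 403 and 404 in TC15, against 236 and 383 in TC10, and 396, 387 and 302 in TC20.

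RNE, the plastid endonuclease RNase E, had 1282, 1243 and 1096 normalised reads in TC15, against 851 and 898 in TC10 (log2 0.46, SE 0.17, adjusted limma p 0.73), and 1096, 1007 and 834 in TC20. PNP2 and PNP1, exoribonucleases of the polynucleotide phosphorylase type, had 368 to 378 and 230.2 to 307 in TC15, against 319 and 328 for PNP2 and 285 and 214 for PNP1 in TC10. Of the 6 splicing factors, all had a higher mean level in TC15 than in TC10 and all a lower one in TC20 than in TC15, some by very little. The log2 changes ran from 0.04 (APO3, SE 0.26) to 0.46 (CAF2P, SE 0.24) in TC15 against TC10. In TC20 against TC15 they ran from -0.45 (CFM2, SE 0.28) to -0.02 (APO3, SE 0.23). CFM2, a CRM-domain factor of chloroplast introns, had 798, 571 and 826 in TC15, against 436 and 752 in TC10. CAF1P had 274 to 317 against 175 and 299, and CAF2P 262 to 327 against 222 and 210.0. Among 5 entries of organelle transcription, SIGA, a sigma factor of the plastid RNA polymerase named here after its values were seen, ran the other way: it had 45.7, 46.7 and 42.3 in TC15, against 77.2 and 83.8 in TC10, and 87.1, 80.4 and 57.5 in TC20 (log2 -0.83, SE 0.28, in TC15 against TC10, adjusted limma p 0.73). SIGC had 247 to 285 and RPOT3, a phage-type RNA polymerase, 215 to 253 in TC15, against 240.1 and 226 for SIGC and 234 and 138 for RPOT3 in TC10. SIGE, another sigma factor, had 157, 139 and 243 in TC15, against 189.6 and 229 in TC10, with overlap.

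The root with the lowest PPR level was the one with the highest ribosomal protein level. Over 30 tested entries of cytosolic ribosomal proteins, a list chosen with the data known, the median log2 difference from the entry mean was 0.58 in TC20 plant 9 and -0.26 to 0.12 in the other 7 roots. In TC15 plant 2, the highest PPR root, it was -0.21, and in TC10 plant 2, next to lowest for the PPR family, it was -0.26, so the lists were not ordered in reverse throughout. Whether the 2 levels are linked was not tested.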

How the data were processed

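Per the labels' protocols, stranded total RNA libraries were made from root RNA. The tools in the submitters' processing notes are FastQC, Trim Galore, kallisto and DESeq2. Their versions, the transcript reference and how entries got their names are not given. The deposited signal values are counts divided by 1 size factor per library: 100% of the values in each library were whole multiples of the value of 1 read, within 0.001 of a read. Entries missing from a file were set to 0. The TC10 plant 5 file was not used because its 4995 values and its header are those of TC15 plant 6.

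The test was limma 3.58.1 (R 4.3.3, empirical Bayes trend) on log2(value + 1) of 4801 entries with at least 10 in at least 2 of 8 libraries, with Benjamini-Hochberg adjustment over all of them and a threshold of 0.05. Fold changes on that scale understate low entries. Count tests on the recovered reads (edgeR 4.0.16 with TMM, DESeq2 1.42.0, limma-voom) were alternatives. Of all entries, edgeR called 0 in each comparison, and DESeq2 14 (TC20 against TC10), 11 (TC20 against TC15), 22 (TC15 against TC10), 35 across treatments and 6 on zinc. The tests were checked on simulated counts with entries changed in TC15. The simulated spread between plants was an assumed value shared by all entries, not one estimated from these roots. The changed entries were drawn from all tested entries, so recovery among PPR members was not measured. In TC15 against TC10, limma recovered 44% and edgeR 45% of simulated log2 changes of 1 in either direction. Of log2 changes of 2, each recovered 99%. Smaller changes, such as the family median of 0.31, were not simulated, so 0 members passing does not show that none changed.

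The p-values measure the spread between plants. Members, lists and the contrasts were chosen with earlier results of these data known, and the organelle lists were trimmed of names that could belong to other proteins. Named members were the 8 with the smallest p in the F test, the 6 per pair and on the zinc slope, the 6 with most reads, the 6 departing most and 4 least from the family level (mean of at least 50), and those not listed in every library; of the other lists, up to 3 by mean and 1 more where said. No p is given for levels or shares summed over the family. Reads carry no molecular identifiers, so depth covers counting error only.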

Additional observations from a re-analysis of the deposited data

How the results depend on the processing

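No PPR entry passed the threshold in any of the 5 tests under any alternative run (other tests, filters, pseudocount, scalings, single libraries left out, or TC10 plant 2 and TC20 plant 9 left out together, the last chosen after seeing the data); in TC15 against TC10, DESeq2 gave only 29 of 261 members an adjusted p. When 1 library was left out, the family median log2 change ranged from 0.19 to 0.40 in TC15 against TC10, from -0.40 to -0.19 in TC20 against TC15, from -0.13 to 0.08 in TC20 against TC10, and from 0.04 to 0.15 per doubling of zinc. The zinc median was 0.022 with treatment as a covariate, against 0.12 without it. All TC20 roots had less zinc than the others, so zinc and treatment cannot be fully told apart. Scaling by total reads put the median of all entries at 0.13 in TC15 against TC10 and that of the PPR entries at 0.44, and gave 0.05 for the PPR entries in TC20 against TC10 with 0.08 over all entries. The summed PPR share differed by 0.10 to 0.31 percentage points in TC15 against TC10, by -0.25 to -0.12 in TC20 against TC15 and by -0.10 to 0.12 in TC20 against TC10 when 1 library was left out. Without a TC10 library, the lone other one is assumed to vary like the other groups. Members with few reads are limited by depth. No paired analysis was made, because the labels give no pairing of plants across treatments.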
